A study of Mus musculus with 1 sample.

Results

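The mRNAs of 10 glycolytic enzymes were examined for their poly(A) tails. In pathway order, the genes were Gpi1, Pfkl, Aldoa, Tpi1, Gapdh, Pgk1, Pgam1, Eno1, Pkm and Ldha. They were chosen by name, and their reads were those assigned to the protein-coding gene of that symbol in the GENCODE vM21 annotation, with at least 7 sequencing passes. Together they held 3086 of 803506 gene-assigned transcripts, which came from 12835 genes in all. The transcripts had been read by PAIso-seq, a PacBio method that copies an RNA together with its tail into cDNA and reads the molecule repeatedly. One group was analysed, with 1 sample. It holds wild-type embryonic stem cells (ESCs) of the ICR strain, taken at 24 h of differentiation into epiblast-like cells (24h-EpiLCs) on Matrigel in N2B27 medium with activin A, bFGF and KSR. The sample holds 2 barcoded replicates. The labels say neither which barcode is which replicate nor whether the replicates were separate cultures, so the spread between them may be technical. Cells without Cnot8, the other genotype of the study, were not analysed here.

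Glycolysis splits glucose into pyruvate in the cytosol and yields ATP and NADH on the way. Lactate dehydrogenase then turns pyruvate into lactate and restores NAD+. Pluripotent stem cells are known for strong glycolysis, and the move out of the naïve state is known to increase their reliance on it. The poly(A) tail is added to an mRNA in the nucleus, is bound by poly(A)-binding proteins in the cytoplasm and is shortened there by deadenylases, among them the CCR4-NOT complex of which Cnot8 is a catalytic subunit. A tail is therefore a record of both its first length and its later shortening.

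At least 7 passes were reached by 354259 reads in replicate 1 and 593361 in replicate 2. Transcripts of nuclear genes numbered 246316 and 455660, and those of protein-coding nuclear genes 215119 and 397161. The smallest share that 3 reads could show was 0.00122% and 0.000658% of nuclear transcripts. The reads carry no molecular identifiers, so every interval below covers counting error only. Among markers, all 4 shared pluripotency genes (2114 transcripts) and all 6 formative genes (1096 transcripts) had reads, as did 7 of 8 naïve genes (589 transcripts). Most of the shared total was Dppa5a (1562 transcripts), and most of the naïve total was Zfp42 (501). Esrrb held 40, Tfcp2l1 21, Klf2 12, Nanog 10, Tbx3 4 and Klf4 1, and Prdm14 was the naïve marker at 0. Of 16 markers of fibroblasts, primitive endoderm, primitive streak and neural cells, 10 were at 0 and the others held 15 transcripts together, 11 in replicate 1 and 4 in replicate 2.

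The enzymes took 1339 transcripts in replicate 1 and 1747 in replicate 2, or 0.544% and 0.383% of nuclear transcripts. In bulk RNA, fewer cells with a transcript and fewer transcripts per cell cannot be told apart. The number of transcripts per enzyme ranged from 13 for Gapdh to 866 for Aldoa. It is given as the depth behind each tail value, not as a level, since reads were not corrected for transcript length. In shares of nuclear transcripts, the ratio of replicate 1 to replicate 2 ran from 0.925 for Pgk1 (5 and 10 transcripts) to 5.52 for Eno1. Across 4018 protein-coding genes with 10 or more transcripts per replicate, this ratio had a median of 1.06 and quartiles of 0.802 and 1.45. Eno1 and Pgam1 (2.93) were at least 2-fold higher in replicate 1, or 2 of the 8 enzymes deep enough to count, beside 9.18% of all such genes.

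The enzymes carried long tails. Over their 3086 transcripts, the median tail was 119 nt, against 90 nt for the transcripts of all other protein-coding genes. In each replicate the enzymes' median, 115 and 121 nt, lay above the 90 nt that the other transcripts showed in both. The middle range of enzyme tails ran from 85 to 150 nt, and that of the other transcripts from 53 to 132 nt. Tail length of a gene is given below as the geometric mean over its transcripts, the summary used in the study. The medians over transcripts, with exact 95% intervals from order statistics, stand beside it.

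**Figure D1:**
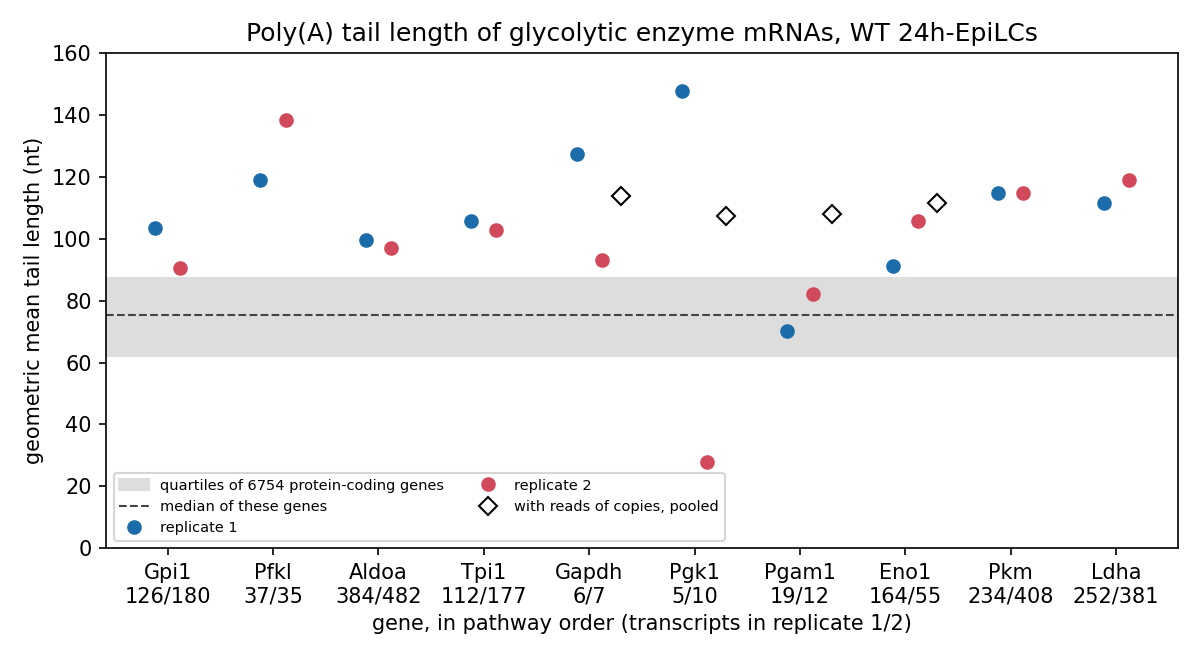
Geometric mean tail length in nt (vertical axis) of each enzyme in replicates 1 and 2 (coloured points), in pathway order with the transcripts per replicate under each name. The grey band and dashed line are the quartiles and median of 6754 protein-coding genes, and open diamonds add the reads of near-identical copies for Gapdh, Pgk1, Pgam1 and Eno1. The points of Gpi1, Pfkl, Aldoa, Tpi1, Eno1, Pkm and Ldha lie above the band in both replicates, and those of Pgk1 lie at 148 and 28.0 nt.

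The early steps of the pathway prepare and split the hexose. Gpi1, glucose-6-phosphate isomerase, opens the series (ENSMUSG00000036427, GRCm38 chromosome 7, 34201330 to 34230336). Its geometric mean tail was 103 and 90.5 nt in replicates 1 and 2 (126 and 180 transcripts). Its median was 108.5 nt (interval 98 to 117). Replicate 1 was thus the longer for Gpi1, and both values lay above the upper quartile of genes in their replicate, 88.4 and 88.9 nt, the second by a small margin.

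Pfkl, the liver-type subunit of phosphofructokinase, catalyses the committed step (ENSMUSG00000020277, chromosome 10, 77986947 to 78010083). Geometric means were 119 and 138 nt in replicates 1 and 2, from 37 and 35 transcripts. With 128 nt for both replicates together, the longest value of the 10, Pfkl ranked 33 among 6754 protein-coding genes. Tails over 150 nt made up 47.2% of its transcripts, against 15.5% of other protein-coding transcripts. A replicate 2 transcript at its typical length, read in 56 passes, is printed to show what such a tail is. It has 147 bases, all A, so it holds no capitals.
Pfkl: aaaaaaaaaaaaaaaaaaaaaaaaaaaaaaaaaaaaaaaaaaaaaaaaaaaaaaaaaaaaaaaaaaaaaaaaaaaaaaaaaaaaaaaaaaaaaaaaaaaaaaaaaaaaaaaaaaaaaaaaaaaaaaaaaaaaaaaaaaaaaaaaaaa

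Aldoa, the aldolase that cleaves fructose 1,6-bisphosphate, was the deepest of the enzymes (ENSMUSG00000030695, chromosome 7, 126795234 to 126800751). The annotation has 2 entries with this name that overlap, and all reads were at this one. The 384 transcripts of replicate 1 had a geometric mean of 99.7 nt and the 482 of replicate 2 one of 96.9 nt. Its median was 107 nt (interval 103 to 111), with 107 and 106 nt in the replicates. Tpi1, triosephosphate isomerase, interconverts both products of aldolase (ENSMUSG00000023456, chromosome 6, 124810586 to 124814296). It had geometric means of 106 and 103 nt in replicates 1 and 2 (112 and 177 transcripts). By the geometric mean, tails of Tpi1 were longer than those of Aldoa in every pairing of replicates, and the median of Tpi1 was 118 nt (interval 111 to 124).

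The later steps gain ATP and end in pyruvate and lactate. Gapdh, glyceraldehyde-3-phosphate dehydrogenase, reduces NAD+ (ENSMUSG00000057666, chromosome 6, 125161715 to 125166467). Only 6 and 7 transcripts were assigned to it, with geometric mean tails of 127 and 93.2 nt. Its tails ran from 43 to 220 nt, and the interval of the median, 48 to 201 nt, covers most of that range. Pgk1, phosphoglycerate kinase, makes the first ATP (ENSMUSG00000062070, chromosome X, 106187100 to 106203699). Its 5 transcripts in replicate 1 had a geometric mean of 148 nt and its 10 in replicate 2 one of 28.0 nt. In replicate 2, 3 of the 10 tails had 1 to 5 nt, whereas the shortest in replicate 1 had 101 nt. Pgam1, phosphoglycerate mutase, had 19 and 12 transcripts and geometric means of 70.1 and 82.1 nt (ENSMUSG00000011752, chromosome 19, 41911923 to 41918660). No length can be fixed for these 3 genes at this depth.

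Eno1, the enolase that forms phosphoenolpyruvate, had 164 transcripts in replicate 1 and 55 in replicate 2 (ENSMUSG00000063524, chromosome 4, 150236721 to 150248879). Its geometric mean tail was 91.1 and 106 nt in replicates 1 and 2, and its median was 113 nt (interval 104 to 119). Here replicate 2 was the longer, the opposite of Gpi1. Pkm, pyruvate kinase, makes the final ATP and pyruvate (ENSMUSG00000032294, chromosome 9, 59656368 to 59679375). The geometric mean was 115 nt in both replicates (SD 0.0703 nt, n = 2, with 234 and 408 transcripts), the closest repeat among the enzymes by this summary. By the median Pkm was not the closest, with 123.5 and 130 nt beside 107 and 106 nt for Aldoa. Ldha, lactate dehydrogenase A, reduces pyruvate to lactate (ENSMUSG00000063229, chromosome 7, 46841475 to 46855627). It had geometric means of 112 and 119 nt in replicates 1 and 2, from 252 and 381 transcripts. The medians of Pkm and Ldha, 128 nt (interval 123 to 131) and 127 nt (interval 122 to 133), could not be separated.

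By the geometric mean of pooled transcripts, the order from the longest was Pfkl, Ldha, Pkm, Gapdh, Tpi1, Aldoa, Gpi1, Eno1, Pgam1 and Pgk1. The place of Pgk1 rests on 3 tails of 1 to 5 nt, without which it had 129 nt, beside 128 nt for Pfkl. Among neighbours with 30 or more transcripts per replicate, the replicate values of Pfkl and Ldha overlapped at their edge, with 119 nt as the lower value of Pfkl and the higher of Ldha. Those of Ldha and Pkm, of Aldoa and Gpi1 and of Gpi1 and Eno1 overlapped too. Pkm lay above Tpi1, and Tpi1 above Aldoa, in every pairing of replicates. The pooled medians gave the same picture for Tpi1 and Aldoa only at their edges, since 111 nt closed the interval of Aldoa and opened that of Tpi1. Tail length therefore did not follow the order of the pathway: long tails stood at the phosphofructokinase step near its start and at the Pkm and Ldha steps at its end.

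**Figure D2:**
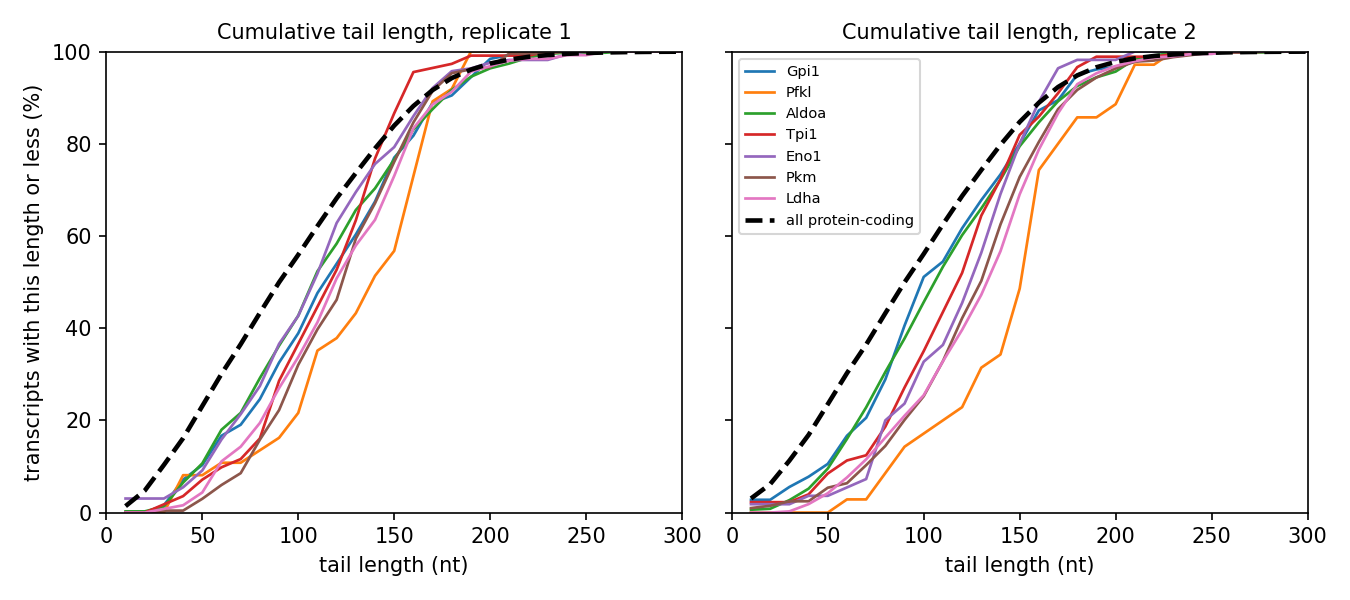
Cumulative share of transcripts in percent (vertical axis) with a tail of a given length or less in nt (horizontal axis), in replicate 1 (left) and replicate 2 (right), for the 7 enzymes with 30 or more transcripts per replicate. The dashed line is all protein-coding transcripts. Curves to the right of it hold longer tails, and Pfkl is farthest right at 150 nt in both replicates.

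The enzymes were then placed among protein-coding genes with at least 10 transcripts. The median gene of 6754 had a geometric mean tail of 75.5 nt, with quartiles of 62.1 and 87.4 nt. The median enzyme had 101 nt, which is 25.6 nt more. In replicate 1 the difference was 27.5 nt (8 enzymes, 4216 genes) and in replicate 2 it was 27.1 nt (9 enzymes, 5584 genes). Their mean was 27.3 ± 0.323 nt (SD, n = 2), but the enzymes and genes differed between replicates. This SD is therefore not the spread of 1 fixed quantity, and the pooled 25.6 nt lay outside both values. With 1 group, no test was made. Gapdh and Pgk1 fell below 10 transcripts in at least 1 replicate, which left 8 enzymes for the counts that follow.

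Of these 8, 7 lay above the gene median in both replicates (Pgam1 did not), beside 34.8% of all 4018 genes. The same 7 lay above the upper quartile of genes in both replicates, beside 13% of all genes. Gpi1, Aldoa, Tpi1, Pkm and Ldha had 100 or more transcripts per replicate, and all 5 were above the upper quartile in both, beside 21.1% of the 375 genes of that depth. Among the 6754 genes, Pfkl was at percentile 99.5, Ldha at 98.1, Pkm at 97.9, Tpi1 at 93.8, Aldoa at 89.4, Gpi1 at 86.9 and Eno1 at 85.5. Pgam1, at percentile 47.9, and Pgk1, at 11.2, stood lower on few reads and with very short tails among them, and Gapdh was at 95.7 on 13. The enzymes' annotated mRNAs were shorter than those of most genes, with a median of 1800 nt (1420 to 3730) against 2938 nt. Their 3′ untranslated regions had a median of 513 nt (178 to 1263) against 948 nt. Against the 3500 genes whose annotated transcripts lie in the enzymes' range of length, the median enzyme was 24.4 nt longer.

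The share of long tails gave a similar picture, with Pfkl again highest. Tails over 90 nt made up 69.2% of enzyme transcripts in replicate 1 and 71.7% in replicate 2, against an interval of 49.7 to 50.2% among other protein-coding transcripts in replicate 1 and 49.8 to 50.1% in replicate 2. By enzyme, the pooled share ran from 62.7% for Gpi1 and 62.9% for Aldoa through 66.7% for Eno1, 72.3% for Tpi1, 76.6% for Ldha and 79.1% for Pkm to 84.7% for Pfkl. The lowest interval among these 7 was that of Gpi1 in replicate 2, 52.1 to 66.3%. Every one of these enzymes was thus above the other transcripts in both replicates. Tails over 150 nt were found in 24.2% of enzyme transcripts and 15.5% of the others. At that length Ldha (29.4%) and Pkm (26.0%) stood above Tpi1 (16.3%, interval 12.5 to 21.0%), which was near the share of the others. Aldoa (21.8%, interval 19.2 to 24.7%) was also higher than Tpi1 here, the reverse of their geometric means, though these intervals overlapped. In replicates 1 and 2, Aldoa had 23.4 and 20.5%, and Tpi1 13.4 and 18.1%.

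**Figure D3:**
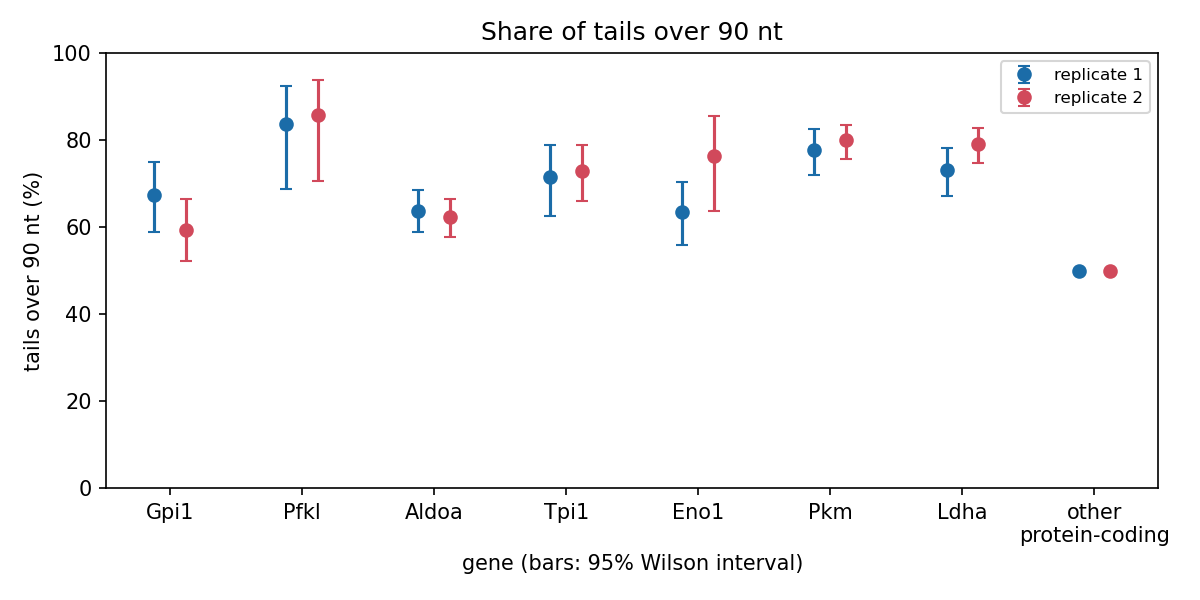
Share of tails over 90 nt in percent (vertical axis) for each enzyme with 30 or more transcripts per replicate and for the other protein-coding transcripts, in replicates 1 and 2. Bars are 95% Wilson intervals, and all enzymes lie above the other transcripts.

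Tails of 1 to 5 nt, the shortest recorded, were found in 22 of 3086 enzyme transcripts, or 0.713%. This share was 0.523% in replicate 1 (interval 0.253 to 1.08%) and 0.859% in replicate 2 (interval 0.521 to 1.41%). Among other protein-coding transcripts it was 0.991% and 2.56%. The intervals overlapped in replicate 1 and lay apart in replicate 2, where such tails were more common in the other genes. Ldha had 0 such tails of 633, which allows a share of up to 0.474% (that of 3 reads), and Pfkl had 0 of 72, which allows up to 4.17%. Eno1 had 6 of 219 (2.74%), Pgk1 3 of 15, Pgam1 2 of 31, Aldoa 4 of 866, Pkm 3 of 642, Gpi1 3 of 306 and Tpi1 1 of 289. The highest shares were therefore at Eno1, Pgk1 and Pgam1, and the deep enzymes Aldoa and Pkm were at 0.462% and 0.467%.

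Bases other than A were found in 9.59% of enzyme tails (10.5% and 8.93% in the replicates) and in 10.7% of other protein-coding tails (12.4% and 9.77%). In replicate 1 the interval of the enzymes, 8.93 to 12.2%, lay just below that of the others, and in replicate 2 the intervals overlapped. Per 1000 tail bases, enzymes held 1.12 such bases and the others 1.59. A T as the final base was seen in 31 of 1339 enzyme tails in replicate 1 (interval 1.64 to 3.27%) and 35 of 1747 in replicate 2 (interval 1.44 to 2.77%). The intervals of the other tails were 4.11 to 4.28% and 2.73 to 2.83%. The enzymes were lower in both replicates, with intervals apart in replicate 1 and overlapping at their edges in replicate 2. By enzyme, the share with any other base ran from 7.27% for Tpi1 and 7.97% for Aldoa to 12.1% for Gpi1, and the intervals of the 7 well-covered enzymes overlapped. Tails read in many passes are printed below to show the kinds of tail behind these shares, with every base other than A in capitals. The tail of Aldoa with an inner C had 110 nt and 190 passes, the one that ends in T bases had 35 nt and 194 passes, and the tail of Ldha had 112 nt and 155 passes.
Aldoa, inner C: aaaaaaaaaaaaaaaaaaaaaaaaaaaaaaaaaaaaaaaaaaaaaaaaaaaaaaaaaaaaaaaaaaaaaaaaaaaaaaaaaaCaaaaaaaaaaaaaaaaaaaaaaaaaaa
Aldoa, final T bases: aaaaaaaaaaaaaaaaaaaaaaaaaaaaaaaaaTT
Ldha, final T: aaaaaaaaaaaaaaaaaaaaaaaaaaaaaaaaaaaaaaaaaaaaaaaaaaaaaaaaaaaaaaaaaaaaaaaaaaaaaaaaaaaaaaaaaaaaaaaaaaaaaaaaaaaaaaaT

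The few reads of Gapdh, Pgk1 and Pgam1, mRNAs that are abundant in most cells, were set against those of their copies. Copies were vM21 pseudogenes named after an enzyme or aligned to one of its transcripts over at least 80% of their length at 85% identity or more. There were 336, and 20 had reads. They held 4278 transcripts, 1901 in replicate 1 and 2377 in replicate 2, more than the 3086 of the enzymes themselves. With those of the retrogene Eno1b the copies held 6674, or 68.4% of the 9760 transcripts of enzymes and copies together. Gpi1, Aldoa, Tpi1 and Ldha have pseudogenes in the annotation, but these held 0 reads. Those of Pkm held 2, and Pfkl has none.

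**Figure D4:**
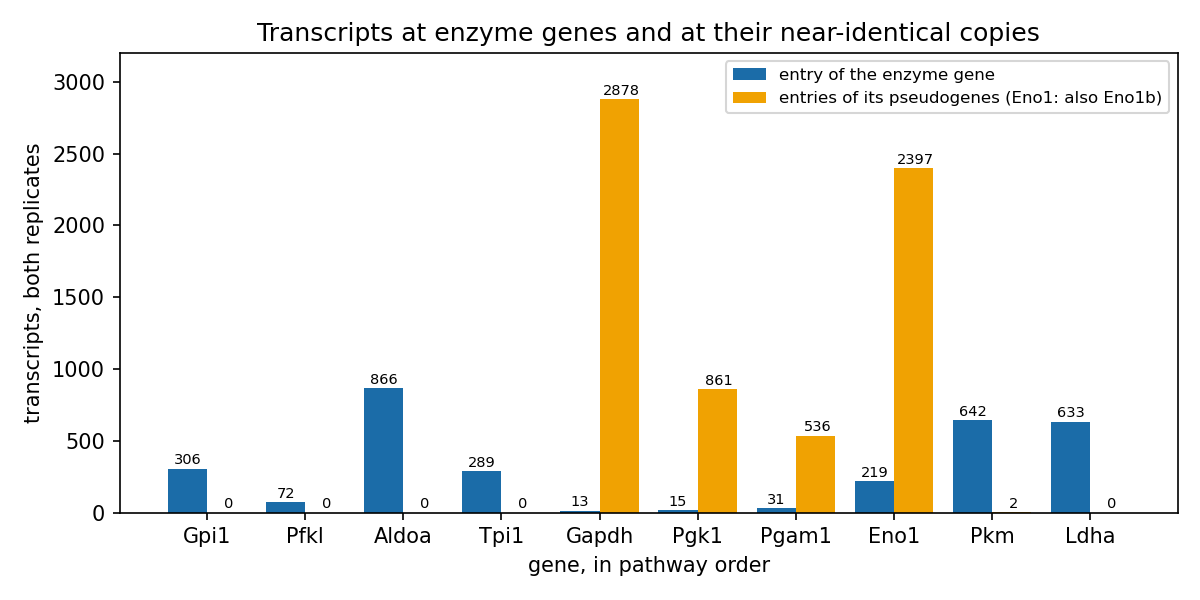
Transcripts in both replicates together (vertical axis) assigned to each enzyme gene (left bar) and to its pseudogenes (right bar, which for Eno1 also holds the retrogene Eno1b), in pathway order. The copies hold most reads for Gapdh, Pgk1, Pgam1 and Eno1 and next to none for the others.

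Gapdh has 273 pseudogene entries, of which 15 had reads. They held 2878 transcripts against 13 at the gene, so that the gene took 0.450% (interval 0.263 to 0.768%), with 0.421% and 0.477% in the replicates. Most reads were at Gm13394, a processed pseudogene of 1 exon on chromosome 2, 28933610 to 28934609, with 1142 transcripts in replicate 1 and 1136 in replicate 2. Its 1000 nt match the Gapdh mRNA, which has 7 exons, at all positions but 1. The difference, A438C, is counted from the start of the Gapdh transcript and lies in its coding region (93 to 1091). The 81 nt around it are printed from the reference to show how little separates both entries, with the differing base in capitals.
Gapdh: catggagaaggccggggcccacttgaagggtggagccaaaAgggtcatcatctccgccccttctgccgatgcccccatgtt
Gm13394: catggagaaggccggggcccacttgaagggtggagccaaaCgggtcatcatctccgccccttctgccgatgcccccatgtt

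Reads at Gm13394 had a geometric mean tail of 114 and 111 nt in replicates 1 and 2. Those at the Gapdh gene had 127 and 93.2 nt, one above and one below. The next copy of Gapdh, Gm7336 (chromosome 7, 51746647 to 51747878, named here after its values were seen), held 510 transcripts with 124 nt. Gm12671, also named after its values were seen, matches Gapdh at 100% over 1002 nt and held 0. The table used here gives the tail and the gene of each read but not the rest of the read. A transcript of an enzyme gene and one of a near-identical copy can therefore not be told apart, and all values of Gapdh, Pgk1, Pgam1 and Eno1 are uncertain in this way.

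Pgk1 and Pgam1 showed the same split. Pgk1 had 15 transcripts at the gene (1.71%) and 861 at copies, 519 of them at Gm5537 (chromosome 3, 58102996 to 58104247) and 342 at Pgk1-rs7 (chromosome 12, 10898986 to 10900240, also named after its values were seen). Both match Pgk1 at 100% over 1252 and 1255 nt, and their geometric mean tails were 111 and 105 nt. Pgam1 had 31 transcripts at the gene (5.47%) and 536 at Pgam1-ps2 (chromosome 7, 27469771 to 27470535), which matches it at 100% over 765 nt. Tails at Pgam1-ps2 had 105 and 115 nt in replicates 1 and 2, above the 70.1 and 82.1 nt at the gene. By the median, Pgam1 had 73 and 123.5 nt at the gene and 111 and 125 nt at the copy, so that only replicate 1 set them apart. In replicate 2, 1 of the 12 tails at the gene had 1 to 5 nt, which lowers a geometric mean strongly at this depth.

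Eno1 shared its reads with Eno1b, a retrogene of 1 exon on chromosome 18 that is annotated as protein-coding and matches Eno1 at 99.5%, with 9 mismatches, over the 99.4% of its 1747 nt that align. Eno1b held 1051 transcripts in replicate 1 and 1345 in replicate 2. The share at Eno1 was 13.5% in replicate 1 (interval 11.7 to 15.5%) and 3.93% in replicate 2 (interval 3.03 to 5.08%). The intervals lay apart, so both replicates split the pair differently, beyond counting error. Tails at Eno1b had 115 and 111 nt in replicates 1 and 2, and those at Eno1 91.1 and 106 nt. Very short tails also differed between the entries: those of 1 to 5 nt were 6 of 219 at Eno1 and 0 of 2396 at Eno1b, which allows up to 0.125%. They were 3 of 15 at Pgk1 and 0 of 861 at its copies, and 2 of 31 at Pgam1 and 0 of 536 at its copy. For Gapdh, 8 of 2878 tails (0.278%) at copies were that short and 0 of 13 at the gene, which allows up to 23.1% and gives no direction.

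With the reads of copies added, the geometric mean tail was 114 nt for Gapdh (115 and 112 nt in the replicates), 107 nt for Pgk1 (113 and 105 nt), 108 nt for Pgam1 (102 and 113 nt) and 111 nt for Eno1 with Eno1b (112 and 111 nt). The replicates of Pgk1, which had lain at 148 and 28.0 nt, were then close to each other. All 10 enzymes were then above the gene median in both replicates, beside the 34.8% of genes given above. Gapdh and Pgk1 entered this count only through the copies. The gene itself held 0.450% of these reads for Gapdh, 1.71% for Pgk1, 5.47% for Pgam1 and 8.37% for Eno1. The added values of these genes are thus mostly those of reads assigned to copies, and say little about reads at the genes. Enzymes and copies made up 1.74% and 1.20% of nuclear transcripts in replicates 1 and 2.

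The other genes of glucose metabolism were taken from fixed lists of isoforms, transporters, regulators, side branches, pyruvate use and gluconeogenesis. Of 64 genes, 54 had reads and 29 had 10 or more transcripts per replicate. Among these 29, 16 were above the gene median in both replicates, 7 below it in both and 6 mixed, and 7 were above the upper quartile in both, beside the 34.8% and 13% of all genes given above. Genes with 30 or more transcripts per replicate are named by rule, and the others named here were picked after their values were seen.

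Of the other isoforms and enzymes of the pathway, 21 genes, 6 could be placed. Above the median in both replicates were Eno1b, Ldhb, Pfkm and Eno3, and the first 2 were above the upper quartile. Ldhb, the heart-type lactate dehydrogenase, had 115 and 102 nt, close to Ldha. Pfkm, the muscle-type phosphofructokinase, had 80.9 and 91.2 nt, and Pfkp, the platelet type, 81.9 and 69.4 nt. Both lay below Pfkl, the third subunit of this enzyme, in every pairing of replicates. Hk2, a hexokinase that feeds the pathway, had 51.2 and 56.1 nt (25 and 43 transcripts), below the lower quartile of genes, 65.3 and 60.6 nt, in both. Hk1, another hexokinase, had 92.3 and 78.3 nt, but on 14 and 7 transcripts, too few to place. Gapdhs and Pgk2, isoforms of the male germ line, were at 0, as were Hk3, Eno4 and Pklr.

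By pooled geometric mean, the 5 transporters and 4 regulators that could be placed all lay below the 7 well-covered enzymes. Slc2a3, a glucose transporter, had 67.0 and 62.8 nt, and Slc2a1, another, 52.7 and 75.6 nt, both below the gene median. For Slc2a1 in replicate 2 (29 transcripts) this was only just so, against a gene median of 75.8 nt. Slc16a3, which exports lactate, had 79.3 and 50.0 nt, on both sides of it, and Bsg, the chaperone of lactate transporters, 79.8 and 87.5 nt. Pdk1, the mitochondrial kinase that inhibits pyruvate dehydrogenase, had 86.5 and 85.4 nt. Myc (63.2 and 37.2 nt) and Hif1a (74.0 and 64.6 nt), transcription factors that act on glycolytic genes, were below the median in both replicates. The transporter Slc16a1 (100 and 71.7 nt) and the regulator Tigar (59.9 and 79.6 nt) lay on both sides of it. In all, 1 transporter was above the median in both replicates, 2 were below and 2 mixed. Of the regulators, 1 was above, 2 were below and 1 was mixed. None of the 9 was above the upper quartile in both replicates.

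The side branches came closest to the enzymes. Of 9 genes placed, 8 were above the gene median in both replicates and 5 above the upper quartile, namely Taldo1, Pgd and G6pdx of the pentose phosphate pathway, Phgdh of serine synthesis and Mpi, the mannose phosphate isomerase. Taldo1, transaldolase, had 117 and 108 nt, and Pgd 95.2 and 92.1 nt. Gpd2, the mitochondrial glycerol-3-phosphate dehydrogenase, had 88.1 and 94.3 nt. Psat1, also of serine synthesis, had 77.0 and 84.3 nt, just below the gene median in replicate 1. Genes that use pyruvate in the mitochondrion were spread around and below the gene median, with 2 of 5 placed above it in both replicates, 2 below and 1 mixed. Pdha1 and Pdhb, subunits of pyruvate dehydrogenase, had 74.4 and 75.1 nt and 90.2 and 79.8 nt, and Dlat, its second enzyme, 78.1 and 77.4 nt. Lower were Dld, the third enzyme of the complex, with 64.2 and 57.2 nt, below the lower quartile in both replicates, and Pdhx, which binds it, with 91.2 and 48.2 nt. Of 5 gluconeogenic genes 4 had reads, 23 transcripts in all, too few to place.

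**Figure D5:**
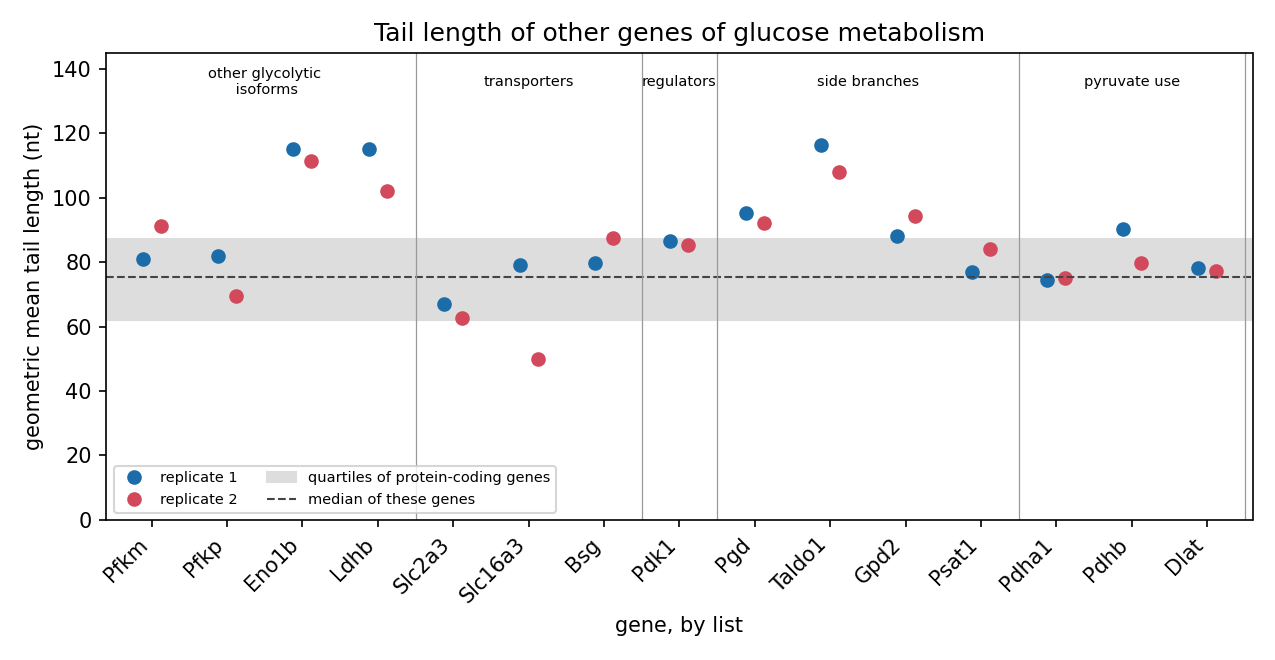
Geometric mean tail length in nt (vertical axis) in replicates 1 and 2 of the 15 other genes of glucose metabolism with 30 or more transcripts per replicate, grouped by list. The grey band and dashed line are the quartiles and median of protein-coding genes. Eno1b, Ldhb and Taldo1 lie above 100 nt in both replicates, and Slc2a3 lies below the median in both.

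The whole distribution of the enzymes was last compared with that of other protein-coding genes, each enzyme weighted equally, among 370 genes with 100 or more transcripts per replicate. Gapdh (13 transcripts), Pgk1 (15) and Pgam1 (31) thus weighed as much as the deep enzymes. How far the nearest genes depend on these few reads was not tested. The largest gap between cumulative curves served as the distance. The closest genes were Prmt1, an arginine methyltransferase, with distances of 0.0556 and 0.0473 in replicates 1 and 2, then Pfn1, which binds actin, with 0.0560 and 0.0830, and Atp5b, a subunit of mitochondrial ATP synthase, with 0.0824 and 0.0673. Their geometric mean tails were 106 and 103 nt for Prmt1, 109 and 105 nt for Pfn1, and 104 and 107 nt for Atp5b.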

How the data were processed

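Poly(A) tails of WT 24h-EpiLCs were measured by PAIso-seq in 1 sample with 2 barcoded replicates. The authors made consensus reads with ccs, split them by barcode, trimmed adapters, mapped them to mm10 with minimap2, took the unaligned 3′ bases of each read as its tail, lengthened by A tracts next to them, left out reads without a tail and assigned genes with featureCounts (versions 2.17 and 2.0.1 in the submitters' processing notes). Secondary alignments were not kept, so a read that matches a gene and its copy was counted at 1 of them. The authors' deposited values are counts per read, of passes and of each base in the tail, with no normalization. The base counts matched the tail sequence in 100% of reads. No column of the authors' own comparisons was used.

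Tail length was the number of bases of the tail. Of 12962 gene identifiers, 12955 were found in GENCODE vM21 (GRCm38, the mm10 build). Reads with at least 7 passes were kept. Genes needed at least 10 transcripts. Mitochondrial genes were left out of nuclear totals. Pseudogenes were aligned to enzyme transcripts with blastn 2.17.0. Printed tails were chosen by passes within their class. Intervals of shares are 95% Wilson intervals, and those of medians are exact. For a count of 0, the share allowed is that of 3 reads. This is lower than the Wilson limit, which was 0.603% for tails of 1 to 5 nt at Ldha. With 1 group, no test was made, and replicates are given side by side or as mean ± SD (n = 2). The enzymes and gene lists were chosen with earlier results of these data known. All 10 enzymes were named, other pathway genes when they had 30 or more transcripts per replicate, the 3 pseudogenes with most transcripts, and the 3 genes with the nearest tail distribution.

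Alternatives changed the pass filter, the replicates, the definition of length, the shortest tail, the summary per gene, the background genes, the reads of pseudogenes and the ends of the tail. Adding Eno1b, keeping enzymes with 30 or more transcripts per replicate and limiting the background by transcript length were chosen after seeing the data. The scripts were tested on simulated data. Software was Python 3.11.15 with biopython 1.88, scipy 1.17.1, pandas 2.3.3, numpy 2.4.6 and matplotlib 3.10.9.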

Additional observations from a re-analysis of the deposited data

Results flagged for a closer look

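Reads of the enzymes with fewer than 7 passes are outside all values above and were looked at because they were more than the 3 reads a count of 0 allows. There were 205, or 6.23% of the enzymes' reads, 99 in replicate 1 and 106 in replicate 2. Their median tail was 112 nt and their geometric mean 99.4 nt, beside 119 and 105 nt for the reads used.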

How the results depend on the processing

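The direction of the difference between the median enzyme and the median gene (25.6 nt) held under every alternative run. It was 25.1 nt with at least 15 passes, 26.5 nt with tails of at least 6 nt, 27.5 nt with medians and 21.0 nt with arithmetic means per gene. It was 21.6 nt against genes with 100 or more transcripts per replicate, 24.7 nt against all nuclear genes and 24.4 nt against genes of like transcript length. It was 32.1 nt with pseudogene reads, 34.2 nt with Eno1b reads too, 28.5 nt for enzymes with 30 or more transcripts per replicate, and 27.1 to 27.5 nt with either replicate left out. The median enzyme itself (101 nt) was at 107 nt without tails under 6 nt, 108 nt without those under 15 nt, 115.5 nt by medians and 114 nt by arithmetic means. It was 107.6 nt with pseudogene reads, 109.7 nt with Eno1b too, 104 nt for enzymes with 30 or more transcripts per replicate and 102.8 to 104.7 nt with either replicate left out. Tails over 90 nt (70.6%) became 73.5% with pseudogene reads and 74.3% with Eno1b too. Tails with a base other than A (9.59%) became 6.97% without the first and last base. The count above the gene median in both replicates (7 of 8 enzymes) was 7 or 8, and 10 of 10 with copies added. In the latter, the values of Gapdh, Pgk1, Pgam1 and Eno1 are mostly those of reads assigned to copies. With 1 replicate left out, the count covers the other only. It was 8 of 9 without replicate 1 and 7 of 8 without replicate 2. Of 110 values of single enzymes under these alternatives, 78 moved by less than 1 SD of the replicates and 32 by more. This SD ran from 0.0703 nt for Pkm to 84.8 nt for Pgk1, so these counts do not measure how stable the values were. Pgk1 at 129 nt without tails under 6 nt, from 48.7 nt, counted as less than 1 SD. Pkm at 114.64 nt with no pass filter, from 114.79 nt, counted as more. Values by medians and arithmetic means were counted too, although they change the summary itself. The cause of the moves was not tested. No paired analysis was possible because there is 1 group.

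Depth limits Gapdh, Pgk1 and Pgam1 most, with 13 to 31 transcripts at the gene. Of these, Pgk1 (48.7 nt) was at 148 nt without replicate 2, at 28.0 nt without replicate 1 and at 129 nt without tails under 6 nt, and Pgam1 (74.5 nt) was at 100.3 nt without such tails.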
